A study of Mus musculus with 15 samples.

Results

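Haematopoietic stem cells (HSC) and granulocyte/macrophage progenitors (GMP) were compared in the bone marrow of young mice, across all genes of an Affymetrix mouse array. The comparison used 9 of the 15 arrays of the study, chosen by their labels: 5 arrays of young HSC and 4 of young GMP. The other 6 arrays, 3 of HSC and 3 of GMP from mice of 22 to 30 months, enter only where young and old mice are compared. The study as a whole asked how stem cells change with age, and its title names replication stress.

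The young mice were 6 to 12 weeks old, wild type and of the strain C57Bl/6, and every sample was labelled male. Both populations were sorted from marrow enriched for c-Kit, lacked the lineage markers of mature blood cells, carried c-Kit, and were sorted a second time for purity. HSC were the cells with Sca-1 and CD150 and without Flk2 and CD48. GMP were the cells without Sca-1 and with CD34 and Fc gamma receptor. RNA from both was amplified with a NuGEN whole-transcript kit because the cells are few. Whether an array held cells of 1 mouse or of a pool is not given in the labels, so that the errors and p-values given here measure the spread between arrays only.

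HSC are the rare cells that renew themselves and can rebuild all blood lineages after transplantation, and most of them rest outside the cell cycle. GMP are their dividing descendants, committed to neutrophils, monocytes and their relatives, and they make the serine proteases and peroxidase that are packed into the azurophil granules of neutrophils. Between both stages the transcription factors of the stem cell, such as Mecom, Hlf, Meis1 and the Hox factors, give way to the factors of the myeloid programme, such as Cebpa and the ETS factor PU.1. PU.1 binds DNA at a purine-rich core, and C/EBP factors bind a short palindrome as pairs.

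The genes furthest apart between both cell types included azurophil granule genes at one end and stem cell genes at the other. The stretch of DNA before the start sites of some granule and stem cell genes is shown here. Whether these genes are regulated together was not tested. RefSeq promoters of the mouse build GRCm38.p6 were found for all 8 genes looked up. The 250 bases before the annotated start are printed 5′ to 3′ on the strand of the gene, and the capitals mark GAGGAA, the core that PU.1 and other ETS factors bind, or its reverse complement TTCCTC.
Mpo, myeloperoxidase, chr11:87793534-87793783, plus strand: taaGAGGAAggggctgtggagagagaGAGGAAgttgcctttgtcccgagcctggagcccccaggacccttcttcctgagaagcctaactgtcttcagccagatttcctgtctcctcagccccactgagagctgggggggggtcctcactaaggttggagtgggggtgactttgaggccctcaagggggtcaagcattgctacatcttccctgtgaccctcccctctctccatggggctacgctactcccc
Elane, neutrophil elastase, chr10:79886062-79886311, plus strand: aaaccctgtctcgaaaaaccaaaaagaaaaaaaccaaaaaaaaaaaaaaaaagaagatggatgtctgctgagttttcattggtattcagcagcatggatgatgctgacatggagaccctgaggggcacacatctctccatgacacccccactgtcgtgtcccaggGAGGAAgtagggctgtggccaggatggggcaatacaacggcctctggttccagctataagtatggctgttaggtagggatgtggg
Prtn3, proteinase 3, chr10:79879417-79879666, plus strand: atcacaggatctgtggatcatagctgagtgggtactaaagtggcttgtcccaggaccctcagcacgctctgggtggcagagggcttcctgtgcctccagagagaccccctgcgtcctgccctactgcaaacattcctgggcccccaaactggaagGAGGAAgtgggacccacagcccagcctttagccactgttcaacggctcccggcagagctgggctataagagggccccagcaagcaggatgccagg
Ctsg, cathepsin G, chr14:56102575-56102824, minus strand: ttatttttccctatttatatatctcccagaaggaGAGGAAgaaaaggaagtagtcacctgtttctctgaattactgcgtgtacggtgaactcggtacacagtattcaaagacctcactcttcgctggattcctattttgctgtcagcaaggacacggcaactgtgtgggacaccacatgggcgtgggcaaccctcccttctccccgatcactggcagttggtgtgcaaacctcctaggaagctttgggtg
Mmrn1, multimerin 1, chr6:60944067-60944316, plus strand: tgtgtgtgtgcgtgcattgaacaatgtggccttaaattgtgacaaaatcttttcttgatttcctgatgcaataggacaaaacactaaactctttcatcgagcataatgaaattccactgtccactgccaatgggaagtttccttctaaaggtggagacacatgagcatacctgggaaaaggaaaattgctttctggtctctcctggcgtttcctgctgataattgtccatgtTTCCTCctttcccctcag
Slamf1, which encodes CD150, chr1:171766882-171767131, plus strand: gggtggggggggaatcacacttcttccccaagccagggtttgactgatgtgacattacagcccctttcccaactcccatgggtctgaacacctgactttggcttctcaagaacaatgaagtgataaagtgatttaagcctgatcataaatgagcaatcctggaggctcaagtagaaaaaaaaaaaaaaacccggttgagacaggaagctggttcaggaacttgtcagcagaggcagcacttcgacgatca

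The letters GAGGAA stood in the windows of all 4 granule genes, read on the strand of the gene. In Mpo they began at positions -247 and -224 from the start, in Elane at -85, in Prtn3 at -95 and in Ctsg at -216. Among the stem cell genes the same letters stood on the other strand of Mmrn1 at -18, and in neither window of Mecom nor in those of Slamf1 and Hlf. Over all 32851 RefSeq promoters of the same length 23.3% held GAGGAA on either strand. The pattern TTGNNNAA, a loose form of the C/EBP site, stood in 0 of the 4 granule windows, at 1 place in Mmrn1 and at 2 places in Slamf1, against 33.3% of all promoters. The GATA core AGATAA stood in none of the 8 genes' windows and in 9.99% of all promoters. Both strands were searched, and no match of 1 pattern overlapped a match of another in these windows. These matches describe letters in short windows and were not tested against binding.

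The arrays separated first by cell type. On a principal component analysis of the 9 young arrays the first component held 65.7% of the variance and separated HSC from GMP. The second held 15.8%, and on it replicate 4 of both types stood apart, at -39.7 for HSC and -25.6 for GMP, with the other 7 arrays between 2.52 and 16.2. Replicate 4 also had the narrowest interquartile range of its group, 2.21 log2 in HSC (2.46 to 2.69 in the others) and 2.13 in GMP (2.43 to 2.60). Any pair of HSC arrays correlated at 0.972 or more, any pair of GMP arrays at 0.983 or more, and an HSC with a GMP array at 0.953 at most. The sex-linked genes varied within both groups despite the shared label male. Xist, the RNA of the inactive X chromosome, lay between 8.92 and 11.51 on 7 young arrays and at 4.72 and 5.49 on replicate 1 of HSC and of GMP. Eif2s3y, on the Y chromosome, was lowest on replicate 4 of both types, at 4.02 in HSC and 4.32 in GMP. Xist was 11.51 and 10.95 on the same arrays, which does not match the label male. On replicates 2, 3 and 5 of HSC and 2 and 3 of GMP, Eif2s3y lay between 7.75 and 9.04 beside high Xist. The sex of the cells on each array was not tested. Neither Xist nor Eif2s3y was called between HSC and GMP (limma adjusted p = 0.751 and 0.879).

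Genes were tested with limma on the log2 values, and a gene was called at an adjusted p under 0.05. Differences are HSC minus GMP in log2 units, so that a value of 1 is a 2-fold higher signal in HSC. Of 19296 genes 4741 were called, which is 24.6%, with 2633 higher in HSC (13.6%) and 2108 lower (10.9%). Of the genes called and more than 2-fold apart 713 were higher in HSC (3.7%) and 376 lower (1.95%). The largest differences lay on the side of the GMP: of the genes more than 16-fold apart, 3 were higher in HSC and 17 lower. All 5 HSC arrays lay above all 4 GMP arrays for 2267 genes (11.7%) and below them for 1835 (9.51%). The sign was the same in 4 of 4 pairs of arrays with the same replicate number for 4555 of the called genes (96.1%) and for 47.2% of all genes. The median difference over all genes was -0.054. In sorted bulk samples fewer cells of a type and less RNA per cell cannot be told apart, which holds for every difference below.

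**Figure D1:**
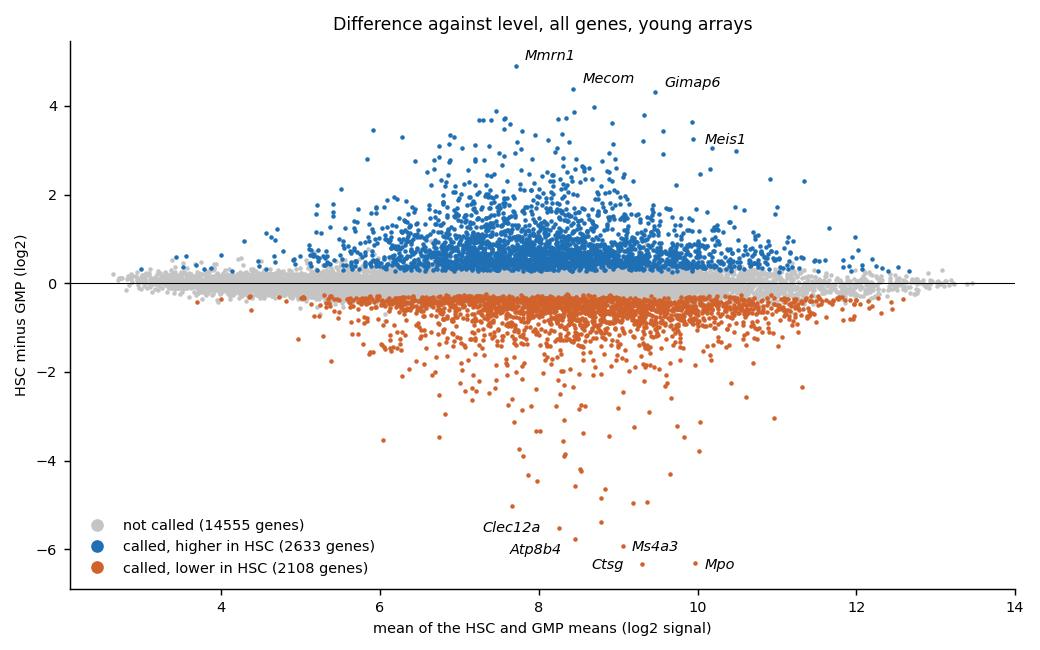
Each point is 1 of 19296 genes, with the mean of its HSC and GMP means on the x axis (log2 signal) and HSC minus GMP on the y axis (log2), over 5 young HSC and 4 young GMP arrays. Blue and orange points were called by limma at an adjusted p under 0.05. The lower edge reaches further from 0 than the upper one, with Ctsg and Mpo at -6.32 and Mmrn1 at 4.91.

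The 6 genes that mark both populations all followed the labels. Mecom, a zinc finger factor needed to keep stem cells, had log2 signals of 10.79, 10.72, 10.62, 10.37 and 10.64 on the 5 HSC arrays and 6.36, 6.36, 6.09 and 6.16 on the 4 GMP arrays. Every HSC array lay more than 4 log2 units above every GMP array, and the difference was 4.39 ± 0.13 (SE; 20.9-fold; limma adjusted p = 4.46e-15). A second probe set of Mecom gave a smaller difference of 1.32, and the mean of both gave 2.85. Mmrn1, a platelet and endothelial adhesion protein, measured 10.34, 10.14, 10.48, 9.50 and 10.37 on the 5 HSC arrays and 5.27, 5.63, 5.00 and 5.13 on the 4 GMP arrays. The groups did not overlap, replicate 4 was the lowest HSC array, and the difference of 4.91 ± 0.20 (SE; adjusted p = 5.8e-13) was the highest of all genes. Slamf1 measured 8.73, 8.73, 8.42, 8.12 and 8.74 on the 5 HSC arrays and 5.00, 5.27, 5.15 and 5.43 on the 4 GMP arrays, again without overlap (3.34 ± 0.15, SE; adjusted p = 2.33e-12). The GMP means of Mmrn1 and Slamf1 lay below 6.22, the mean lower quartile of the young arrays, and folds against such dim signals are not exact sizes.

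On the GMP side, Mpo, the enzyme that makes hypochlorous acid in the neutrophil granule, measured 6.56, 6.94, 7.19, 6.40 and 6.98 on the 5 HSC arrays and 13.17, 13.21, 13.09 and 13.05 on the 4 GMP arrays. The groups stood more than 5 log2 units apart at their closest, and the difference was -6.32 ± 0.15 (SE; 79.7-fold; adjusted p = 1.81e-16). Ctsg, the granule protease cathepsin G, measured 5.83, 6.08, 6.40, 6.18 and 6.18 on the 5 HSC arrays and 12.52, 12.62, 12.52 and 12.18 on the 4 GMP arrays. It differed by -6.32 ± 0.12 (SE; adjusted p = 2.95e-18) without overlap, with the HSC mean below the lower quartile of the arrays. Fcgr3, a receptor for the Fc part of antibodies, measured 6.36, 6.02, 6.29, 7.01 and 6.32 on the 5 HSC arrays and 10.31, 10.37, 10.26 and 10.06 on the 4 GMP arrays. It differed by -3.85 ± 0.15 (SE), and the highest HSC array was replicate 4.

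**Figure D2:**
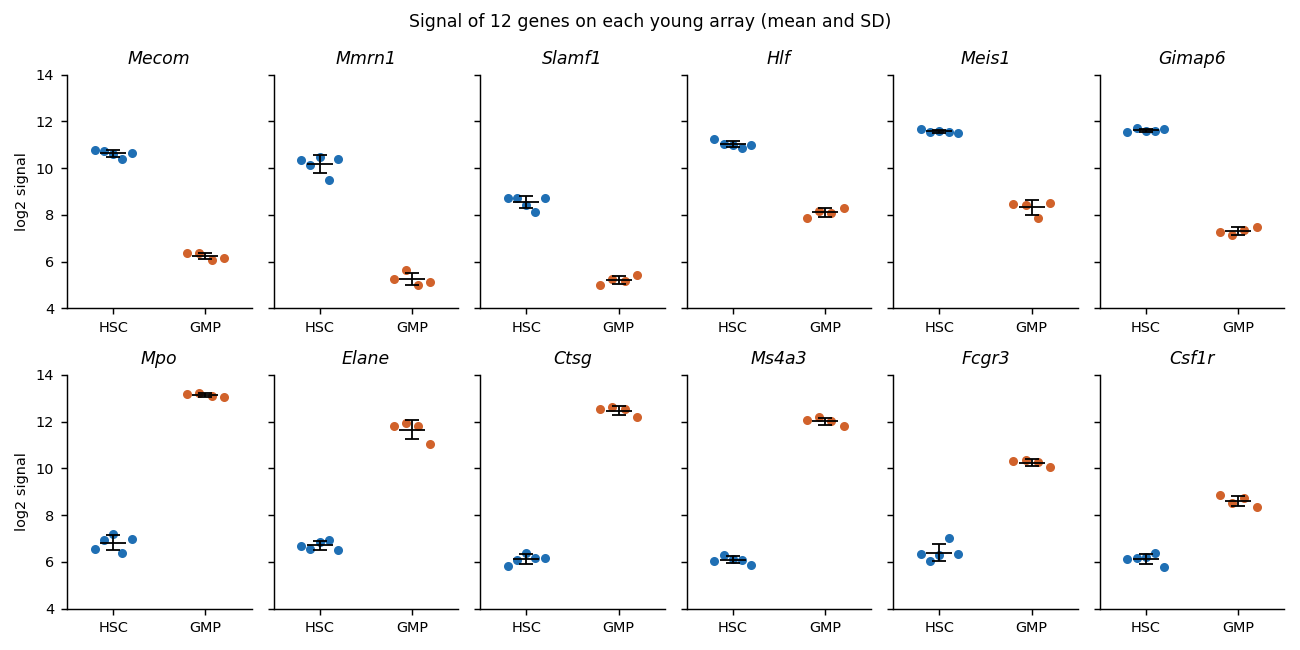
Points are the log2 signals of 12 genes on each of the 5 young HSC (blue) and 4 young GMP arrays (orange), and black bars are the mean and SD of each group. HSC and GMP do not overlap for any of the 12 genes. The upper row is higher in HSC and the lower row in GMP.

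The cells were sorted on several of these proteins, so that their transcripts check the sort and are no finding. Of 8 such genes measured 3 were called higher in HSC and 4 lower. Cd48, which excludes a cell from the HSC gate, measured 6.13, 6.47, 5.96, 7.56 and 5.95 on the 5 HSC arrays and 10.83, 10.52, 10.54 and 10.54 on the 4 GMP arrays. All HSC arrays lay below all GMP arrays, and HSC replicate 4 stood closest to GMP. Fcgr2b, another Fc receptor, was lower in HSC, at -1.80 ± 0.093, while Fcgr1 was not called (-0.22 ± 0.13; adjusted p = 0.241). Cd34 was lower in HSC, at -0.58 ± 0.13. Kit, the receptor on which both populations were selected, was still higher in HSC by 1.06 ± 0.10. Flt3, which encodes Flk2 and whose protein the HSC gate excludes, had the higher transcript signal in HSC: 8.65, 8.29, 8.58, 8.47 and 8.25 on the 5 HSC arrays and 7.80, 7.65, 7.84 and 7.76 on the 4 GMP arrays. HSC and GMP arrays did not overlap (0.69 ± 0.11, SE; adjusted p = 9.94e-05). Of 9 genes of the lineage cocktail, Ptprc, the common leukocyte antigen, was called higher (0.57 ± 0.11) and Itgam, one chain of Mac1, lower (-0.47 ± 0.12). The share of 11.1% in each direction is close to the 13.6% and 10.9% of all genes. The other 7, Cd3e among them (-0.18 ± 0.14; adjusted p = 0.397), were not called.

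Stem cell transcription factors were called higher in HSC more often than genes at large. The gene lists used here overlap in part, so that a gene can count in more than 1. They were chosen with earlier results of these data known, so that their shares are descriptions and not tests. The count of each list stands against the 13.6% of all genes called higher in HSC and the 10.9% called lower. Of 26 such factors measured 21 were called higher and 0 lower, with a median difference of 1.05, against 13.6% of all genes called higher and a median of -0.054. Hlf, a bZIP factor of the most primitive cells, measured 11.26, 11.04, 10.97, 10.87 and 11.00 on the 5 HSC arrays and 7.88, 8.18, 8.07 and 8.30 on the 4 GMP arrays. Meis1, the homeodomain partner of Hox proteins, measured 11.66, 11.55, 11.59, 11.56 and 11.51 on the 5 HSC arrays and 8.48, 8.42, 7.85 and 8.53 on the 4 GMP arrays. In neither did the groups overlap, and the differences were 2.92 ± 0.14 for Hlf and 3.25 ± 0.17 for Meis1 (SE; adjusted p = 5.54e-12 and 1.84e-11). Mllt3, a reader of acetylated histones that helps human stem cells persist in culture, was higher by 2.59 ± 0.12. Ndn, an imprinted growth suppressor, was higher by 3.47 ± 0.33, although its HSC arrays spread from 7.57 on replicate 4 to 10.03. Gata2, which stem cells share with mast cells, was higher by 1.04 ± 0.13. The members that were not called include factors shared along the myeloid path: Runx1 differed by 0.069 ± 0.13, Lyl1 by -0.072 ± 0.12 and Fli1 by 0.25 ± 0.10 (adjusted p = 0.741, 0.718 and 0.0825). Fli1 passed the threshold without HSC replicate 4 (adjusted p = 0.0388) and after a second quantile normalization (0.000898).

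The Hox genes encode homeodomain factors laid out in 4 clusters. Of the 26 measured on the list 9 were called higher in HSC (34.6%, against 13.6% of all genes) and 0 lower. The 9 comprised Hoxa2, Hoxa3, Hoxa5, Hoxa6, Hoxa9 and Hoxa10 of the A cluster and Hoxb2, Hoxb4 and Hoxb5 of the B cluster. Hoxa5 measured 9.21, 8.58, 8.97, 8.35 and 8.71 on the 5 HSC arrays and 6.81, 6.97, 7.11 and 7.21 on the 4 GMP arrays. Hoxb5, used as a reporter of long-term stem cells, measured 7.59, 8.11, 7.70, 7.20 and 7.46 on the 5 HSC arrays and 6.11, 6.11, 6.03 and 6.03 on the 4 GMP arrays. Both separated the groups completely, by 1.74 ± 0.17 and 1.55 ± 0.16 (SE). Smaller differences were seen for Hoxa9, a leukaemia oncogene and stem cell factor (0.76 ± 0.10), Hoxa6 (0.72 ± 0.10), Hoxa3 (0.70 ± 0.13), Hoxa10 (0.68 ± 0.13), Hoxa2 (0.56 ± 0.13), Hoxb4 (0.48 ± 0.11) and Hoxb2 (0.45 ± 0.13). Hoxa7 narrowly missed the threshold (0.30 ± 0.11; adjusted p = 0.0502) and passed it with the replicate block (adjusted p = 0.0439) and without GMP replicate 4 (0.02). Hoxa4 and Hoxb3, at mean signals above 8 in both types, were not called (-0.12 ± 0.14 and 0.094 ± 0.11). Hoxb13, which the list does not hold and which was chosen after its values were seen, was called lower (-0.40 ± 0.12, SE; adjusted p = 0.0165), with its HSC mean below the lower quartile, and lost its call without GMP replicate 3 or 4 (0.0641 and 0.06). No listed gene of the C or D cluster was called. In 7 of the listed genes both means lay below the lower quartile, such as Hoxc8, at 5.92 ± 0.26 in HSC and 6.19 ± 0.17 in GMP (SD). Whether the clusters differ was not tested. The median over the Hox genes was -0.0145, and it was 0.298 over those above the lower quartile.

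Surface and adhesion genes of stem cells followed the transcription factors. Of 29 measured 25 were called higher in HSC (86.2%, against 13.6% of all genes) and 1 lower, with a median of 1.21. Emcn, the sialomucin endomucin, measured 9.35, 9.69, 9.64, 8.86 and 9.63 on the 5 HSC arrays and 5.71, 5.78, 5.45 and 5.89 on the 4 GMP arrays. There was no overlap between the groups (3.73 ± 0.18, SE). Tek, the angiopoietin receptor, was higher by 2.68 ± 0.15, and Adgrg1, an adhesion G protein-coupled receptor, by 2.46 ± 0.15. The exception was Nrp1, a co-receptor of semaphorins and VEGF, which was lower in HSC, at -1.33 ± 0.18. Gpr183, an oxysterol receptor that guides immune cells, did not differ between the young types beyond the spread of the arrays: 8.23, 7.73, 7.80, 8.03 and 7.55 on the 5 HSC arrays and 7.82, 7.70, 7.95 and 7.91 on the 4 GMP arrays. Its difference was 0.021 ± 0.17 (adjusted p = 0.944).

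Azurophil granule and early myeloid genes were lower in HSC and gave 7 of the 12 largest differences on the GMP side. Of 24 measured 21 were called lower and 0 higher, with a median of -2.55, against 10.9% of all genes called lower. Elane measured 6.70, 6.55, 6.83, 6.95 and 6.50 on the 5 HSC arrays and 11.83, 11.95, 11.81 and 11.06 on the 4 GMP arrays. Ms4a3, a membrane protein of granulocyte/macrophage progenitors, measured 6.05, 6.32, 6.14, 6.08 and 5.88 on the 5 HSC arrays and 12.06, 12.18, 12.04 and 11.81 on the 4 GMP arrays. In both, every HSC array lay far below every GMP array, and the differences were -4.96 ± 0.15 for Elane and -5.93 ± 0.11 for Ms4a3 (SE; adjusted p = 1.08e-14 and 2.95e-18). Prtn3, the neighbour of Elane, was well above the lower quartile in HSC too: 8.60, 8.65, 8.73, 7.60 and 8.54 on the 5 HSC arrays and 10.95, 11.14, 11.07 and 9.81 on the 4 GMP arrays. It was lower, at -2.32 ± 0.24 (SE; 5-fold), and replicate 4 was the lowest array in both groups. Atp8b4, a lipid flippase, and Clec12a, an inhibitory lectin of myeloid cells, were lower, at -5.77 ± 0.14 and -5.53 ± 0.14. Hp, which encodes the haemoglobin scavenger haptoglobin, was lower, at -5.39 ± 0.13.

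The 3 members that were not called had high signals in both cell types. Srgn, the proteoglycan serglycin on which granule proteases are stored, measured 12.34 ± 0.16 in HSC and 12.48 ± 0.12 in GMP (SD; n = 5 and 4). Ctsc, the peptidase that activates the granule proteases, measured 9.58 ± 0.31 and 9.71 ± 0.22. Lyz2, lysozyme, a gene widely used to mark mature myeloid cells, measured 9.96, 10.27, 10.31, 9.18 and 10.21 on the 5 HSC arrays and 9.83, 9.67, 10.02 and 9.29 on the 4 GMP arrays. The groups overlapped, and the difference was 0.29 ± 0.20 (SE; adjusted p = 0.346). Without HSC replicate 4 Lyz2 passed the threshold as higher in HSC, at 0.488 (adjusted p = 0.0234), the 1 member of the list called higher there.

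Genes of the later neutrophil granules and of mature neutrophils gave smaller and more variable differences. Of 23 measured 13 were called lower and 1 higher, with a median of -0.475, or -0.881 over the members above the lower quartile. S100a8, one subunit of calprotectin, measured 6.89, 7.65, 7.17, 7.12 and 6.99 on the 5 HSC arrays and 10.03, 11.78, 11.36 and 9.25 on the 4 GMP arrays. Its partner S100a9 measured 7.48, 8.68, 8.44, 8.49 and 8.80 on the 5 HSC arrays and 10.65, 12.23, 11.91 and 9.03 on the 4 GMP arrays. The GMP arrays of both ranged over more than 2 log2 units, with replicate 4 lowest, while the HSC arrays stayed below all of them. The differences were -3.44 ± 0.37 and -2.58 ± 0.43 (SE), and S100a9 differed by -3.22 without GMP replicate 4, a fold of 9.32 in place of 5.98. Cxcr2, the chemokine receptor that draws neutrophils to inflamed tissue, was lower, at -2.36 ± 0.18. Camp, a cathelicidin of the specific granules that appear later in maturation, was not called (-0.42 ± 0.20; adjusted p = 0.155). Padi4, which citrullinates histones in neutrophils, was the member higher in HSC (0.70 ± 0.12; adjusted p = 0.000134).

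Myeloid transcription factors moved both ways: 8 of 23 were called higher in HSC and 8 lower, 34.8% each. The shares of all genes were 13.6% and 10.9%, and the median of the list was -0.0548. Irf8, which steers GMP towards monocytes and dendritic cells, measured 7.18, 7.03, 6.97, 7.49 and 7.09 on the 5 HSC arrays and 9.51, 9.21, 9.72 and 8.86 on the 4 GMP arrays. Cebpa, without which GMP do not form, measured 7.87, 8.11, 7.76, 8.38 and 8.42 on the 5 HSC arrays and 9.78, 9.78, 9.88 and 9.93 on the 4 GMP arrays. Both were lower in HSC without overlap, with differences of -2.18 ± 0.16 and -1.74 ± 0.15 (SE; adjusted p = 2.48e-09 and 2.28e-08). Cebpe, which drives late granule genes, and Cebpd were lower, at -1.83 ± 0.15 and -1.19 ± 0.14. Cebpb, the factor of emergency granulopoiesis, was not called (-0.36 ± 0.14; adjusted p = 0.0741), and it was called lower in HSC with the replicate block (-0.454; adjusted p = 0.00371) and without HSC replicate 5 or GMP replicate 4 (0.0226 and 0.043). Spi1, which encodes PU.1 and is named here after its values were seen, measured 8.24, 8.53, 8.76, 8.26 and 8.35 on the 5 HSC arrays and 9.46, 9.27, 9.57 and 8.89 on the 4 GMP arrays. It was lower in HSC without overlap (-0.87 ± 0.15, SE; adjusted p = 0.000164). Among the members higher in HSC were Egr1, a zinc finger factor of the immediate early response (2.31 ± 0.20), Nfe2, a factor of platelet formation (0.94 ± 0.19), and Id2, an inhibitor of bHLH factors (1.05 ± 0.27). The HSC and GMP arrays overlapped for Nfe2 and Id2, whose lowest HSC array was replicate 4.

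Cytokine and growth factor receptors went both ways. Of 33 measured 9 were called higher in HSC (27.3%) and 8 lower (24.2%), with a median of 0.0111, against 13.6% and 10.9% of all genes. The receptors for colony-stimulating factors, the cytokines that drive myeloid output, are part of this list. Csf1r, the receptor of macrophage colony-stimulating factor, measured 6.13, 6.17, 6.21, 6.38 and 5.80 on the 5 HSC arrays and 8.86, 8.53, 8.73 and 8.35 on the 4 GMP arrays. It was lower without overlap, at -2.48 ± 0.13 (SE; adjusted p = 2.19e-11), with its HSC mean below the lower quartile. Csf2rb, the shared beta chain of the GM-CSF, IL-3 and IL-5 receptors, was lower, at -1.05 ± 0.11, and Csf2ra, the GM-CSF alpha chain, at -0.64 ± 0.13. Csf3r, the granulocyte colony-stimulating factor receptor, was lower, at -0.62 ± 0.12. Csf2rb2, the second mouse beta chain, did not differ beyond the spread (0.017 ± 0.11; adjusted p = 0.93). Among the other receptors, Ccr2, the receptor that brings monocytes out of the marrow, was lower, at -3.74 ± 0.15, and Ifngr1, the interferon gamma receptor, at -1.23 ± 0.14. Ghr, the growth hormone receptor, and Tgfbr3, a co-receptor of TGF-beta, were higher by 2.28 ± 0.23 and 1.71 ± 0.15.

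Markers of mast cells, eosinophils and macrophages were called lower in HSC more often than higher. Of 17 mast cell and basophil markers 8 were called lower in HSC (47.1%, against 10.9% of all genes) and 3 higher, while 6 were not called. Mcpt8, a basophil protease, measured 5.48, 5.58, 5.83, 6.32 and 5.56 on the 5 HSC arrays and 10.36, 10.10, 10.08 and 10.28 on the 4 GMP arrays. Its groups stood 3 or more log2 units apart, with a difference of -4.45 ± 0.15 (SE). Hdc, which makes histamine, and Cpa3, a mast cell carboxypeptidase, were lower, at -3.55 ± 0.16 and -2.85 ± 0.17. The 3 members higher in HSC were Slc18a2, a vesicular monoamine transporter (2.52 ± 0.18), and Kit and Gata2, which stem cells are known to share. Of 8 eosinophil markers 4 were called lower (50%, against 10.9% of all genes) and 0 higher, and the other 4 were not called. Prg2, the major basic protein of eosinophil granules, measured 6.04, 6.14, 6.45, 6.65 and 6.50 on the 5 HSC arrays and 10.52, 9.88, 10.42 and 10.24 on the 4 GMP arrays, and its relative Prg3 was lower, at -2.37 ± 0.15. The others were Epx, the eosinophil peroxidase (-0.61 ± 0.18), and Siglecf, a sialic acid receptor (-0.53 ± 0.12). Epx lost its call without GMP replicate 3 (adjusted p = 0.0698).

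Of 19 macrophage and monocyte markers 9 were called lower in HSC (47.4%, against 10.9% of all genes) and 0 higher. The other 10 were not called. The 9 included F13a1, a coagulation factor subunit made by monocytes, lower, at -4.84 ± 0.17, and Ly86, a partner of a toll-like receptor relative, lower, at -4.57 ± 0.20. C1qa, a complement gene of tissue macrophages, was at 7.24 ± 0.20 in HSC and 7.37 ± 0.05 in GMP and was not called. Vcam1, an adhesion molecule of macrophages and stroma, was lower, at -2.06 ± 0.33, with replicate 4 at 7.90 in both groups and the other HSC arrays at 6.08 to 6.32. The mean of the macrophage list was 6.81 on HSC replicate 4, 6.29 to 6.39 on the other 4 HSC arrays and 7.62 to 7.68 on the GMP arrays. The eosinophil list showed the same array highest among HSC, at 6.57 against 6.18 to 6.30, with GMP at 7.23 to 7.40. Without HSC replicate 4, 12 macrophage markers were called lower and 1 higher. The part of these markers in the other results of HSC replicate 4 was not tested.

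Megakaryocyte and platelet markers went the other way. Of 18 measured 14 were called higher in HSC (77.8%, against 13.6% of all genes) and 1 lower (median 0.69). Pf4, platelet factor 4, measured 9.43, 9.28, 9.67, 8.59 and 9.78 on the 5 HSC arrays and 7.07, 7.89, 6.50 and 5.91 on the 4 GMP arrays. The groups did not overlap although the GMP arrays spread from 5.91 to 7.89 (2.50 ± 0.36, SE; adjusted p = 2.19e-05). Gp5, a subunit of the platelet von Willebrand receptor, was higher by 1.93 ± 0.18 and F2r, a thrombin receptor, by 2.02 ± 0.15. Mmrn1 belongs to this list as well as to the surface genes. Tubb1, the beta tubulin of mature platelets, was the member called lower (-0.35 ± 0.11; adjusted p = 0.0279), a call lost, leaving 0, without HSC replicate 2 or 3 or GMP replicate 3 or 4 (adjusted p from 0.056 to 0.089).

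Of 14 erythroid markers 4 were called higher in HSC (28.6%, against 13.6% of all genes) and 2 lower (14.3%, near the 10.9% of all genes). Car2, a carbonic anhydrase of red cells that stem cells also carry, measured 11.12, 11.29, 11.29, 11.02 and 11.39 on the 5 HSC arrays and 7.60, 7.54, 7.10 and 7.49 on the 4 GMP arrays. It was higher in HSC by 3.79 ± 0.15 (SE), and Hemgn, a nuclear protein of stem and erythroid cells, by 1.84 ± 0.13. Tfrc, the transferrin receptor of dividing cells, was lower, at -1.45 ± 0.14. Slc4a1, the anion exchanger of the red cell membrane, was lower, at -0.33 ± 0.11 (adjusted p = 0.0358), and lost its call without HSC replicate 1, 2 or 3 or GMP replicate 2, 3 or 4, which left Tfrc. Markers of mature lymphocytes and of stroma gave few calls. None of 11 B cell markers was called by limma (2 lower with the replicate block, 1 without HSC replicate 3 or 5 or GMP replicate 4), and Pax5, the factor that fixes B cell identity, was at 6.97 ± 0.10 in HSC and 7.04 ± 0.15 in GMP. None of 13 stromal markers was called either (2 lower with the block and 3 without HSC replicate 4), such as the collagen gene Col1a1 at 7.82 ± 0.23 and 8.09 ± 0.09. Without HSC replicate 4 Col1a1 itself was called lower (-0.362; adjusted p = 0.0116). Of 16 T and NK cell markers 2 were called higher, 12.5% and close to the 13.6% of all genes (3 with the replicate block and 4 with the spread of each array as a covariate): Lat, an adaptor of the T cell receptor that megakaryocytes also use (2.06 ± 0.14), and Klrb1c, which encodes NK1.1 (0.98 ± 0.23, with overlapping arrays). Of 15 endothelial markers, at shares near those of all genes, Egfl7 was higher (0.53 ± 0.13) and Flt1 and Pecam1 lower (-0.65 ± 0.12 and -0.59 ± 0.11). Of 13 dendritic cell markers 1 was called in each direction (7.69%, below the shares of all genes), Flt3 higher and Irf8 lower. The count lower was 2 with the block and 3 without HSC replicate 4. The count higher was 2 without GMP replicate 4.

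Genes of cell division were lower in HSC, without exception among those of mitosis. All 29 mitosis genes measured were called lower, with a median of -0.949, against 10.9% of all genes. The count was 27 after quantile normalization or without GMP replicate 2 or 4. Without HSC replicate 1 or 3, or without replicate 4 of both types, it was 28. Bub1, a kinase of the spindle checkpoint, measured 8.10, 8.56, 8.09, 8.49 and 7.74 on the 5 HSC arrays and 10.05, 9.92, 9.71 and 9.90 on the 4 GMP arrays. Aurkb, the kinase of the chromosomal passenger complex, measured 8.10, 8.39, 8.22, 8.25 and 8.10 on the 5 HSC arrays and 9.55, 9.63, 9.58 and 9.63 on the 4 GMP arrays. The groups stood apart in both, by -1.70 ± 0.17 and -1.39 ± 0.11 (SE; adjusted p = 2.91e-07 and 9.04e-09). Mki67, the proliferation antigen Ki-67, was more variable: 9.09, 8.90, 8.89, 10.28 and 8.63 on the 5 HSC arrays and 10.38, 10.32, 10.14 and 10.74 on the 4 GMP arrays. HSC replicate 4 lay among the GMP arrays, and the difference over all arrays was -1.24 ± 0.24 (adjusted p = 0.000523).

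Of 43 DNA replication genes 34 were called lower in HSC (79.1%, against 10.9% of all genes) and 0 higher, with a median of -0.531. The count lower ran from 29 without GMP replicate 1 to 36 without GMP replicate 4 or with the spread of each array as a covariate. Rrm2, the regulated subunit of ribonucleotide reductase, measured 8.64, 8.71, 8.50, 8.26 and 8.29 on the 5 HSC arrays and 10.39, 10.36, 10.39 and 10.15 on the 4 GMP arrays. It was lower, at -1.84 ± 0.12 (SE; adjusted p = 5.1e-10). Cdc6, which loads the replicative helicase, and Gins1, a part of the active helicase, were lower, at -1.24 ± 0.16 and -1.23 ± 0.13. The 6 subunits of the MCM helicase ring, which act together in 1 complex, ranged from -0.90 for Mcm5 to -0.22 for Mcm6. Mcm5, Mcm7 (-0.75 ± 0.11), Mcm3 (-0.49 ± 0.10), Mcm4 (-0.45 ± 0.11) and Mcm2 (-0.50 ± 0.15) were called. Mcm6 was not (-0.22 ± 0.10; adjusted p = 0.133), although its HSC arrays all lay below its GMP arrays. Mcm2 lost its call without HSC replicate 1 or GMP replicate 1 or 3 (adjusted p from 0.0523 to 0.0562). Pcna, the sliding clamp, was bright in both types and was not called: 12.90, 12.60, 12.63, 12.78 and 12.76 on the 5 HSC arrays and 12.49, 12.77, 12.67 and 12.77 on the 4 GMP arrays.

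Of 15 CDK inhibitors, pocket proteins and related growth arrest genes 5 were called higher in HSC (33.3%, against 13.6% of all genes) and 2 lower (13.3%, near the 10.9% of all genes), with a median of 0.197. Cdkn1c, the inhibitor p57 linked to stem cell quiescence, measured 8.23, 8.05, 8.38, 7.30 and 8.06 on the 5 HSC arrays and 6.98, 7.23, 7.37 and 7.28 on the 4 GMP arrays. Only replicate 4 of the HSC arrays lay within the range of GMP, and the difference was 0.79 ± 0.16 (SE; adjusted p = 0.000812). Rbl2, the pocket protein p130 of resting cells, was higher by 0.91 ± 0.11 without overlap, Btg2 by 0.74 ± 0.16, Cdkn2d by 0.47 ± 0.14 and Btg1 by 0.39 ± 0.14. Gadd45a, a DNA damage response gene, and Cdkn2c were lower, at -0.74 ± 0.15 and -0.48 ± 0.15. Cdkn1b, Rb1 and Cdkn2a were not called (0.29 ± 0.20, 0.064 ± 0.16 and -0.28 ± 0.10). Several of these calls changed with the arrays or settings used. Btg1 lost its call without HSC replicate 1, 2, 3 or 5 or GMP replicate 3 or 4 (adjusted p up to 0.2). It also lost the call after quantile normalization (0.0522) and with only the 9 young arrays fitted (0.0745). Cdkn2c lost its call without HSC replicate 3, 4 or 5 or GMP replicate 1, 2 or 3 (up to 0.0854). Cdkn2d lost it without GMP replicate 3 (0.0593), which left 3 members higher, and Cdkn2a gained it as lower without HSC replicate 5 or GMP replicate 1 (0.0486 and 0.0334). The count lower was 1 without HSC replicate 3 or 4 or GMP replicate 2 or 3, and 4 after quantile normalization or with the spread of each array as a covariate.

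The cyclins and kinases of G1 moved both ways. Of 20 measured 5 were called higher in HSC and 9 lower. The D-type cyclins, which start G1, were all higher: Ccnd1 by 0.94 ± 0.15, Ccnd2 by 0.71 ± 0.13 and Ccnd3 by 0.54 ± 0.11. Cdk6, the kinase they activate, was lower: 10.22, 9.67, 9.84, 10.19 and 9.79 on the 5 HSC arrays and 11.29, 11.27, 11.19 and 11.10 on the 4 GMP arrays. HSC and GMP arrays did not overlap (-1.27 ± 0.13, SE; adjusted p = 2.73e-07). Ccne2, a cyclin of the step into S phase, was lower, at -0.94 ± 0.19, and E2f8, a repressor in the E2F family, at -1.64 ± 0.16. Mycn was higher in HSC by 1.37 ± 0.18, while Myc, at mean signals above 11 in both types, did not differ beyond the spread (-0.087 ± 0.14; adjusted p = 0.71).

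Genes of biosynthesis were called lower in HSC more often than higher. In the secretory pathway of the endoplasmic reticulum 21 of 29 genes were called lower (72.4%, against 10.9% of all genes) and 1 higher, with a median of -0.678. P4hb, a protein disulfide isomerase, measured 10.50, 10.55, 10.63, 10.10 and 10.52 on the 5 HSC arrays and 11.78, 11.81, 11.69 and 11.40 on the 4 GMP arrays. All HSC arrays lay below all GMP arrays (-1.21 ± 0.13, SE). Sdf2l1, a chaperone partner, and Hyou1, a stress chaperone, were lower, at -1.37 ± 0.12 and -1.18 ± 0.15. Dnajb9 was the member higher in HSC (0.89 ± 0.24). The count higher was 2 with the replicate block and 3 without HSC replicate 4. In nucleotide and one-carbon synthesis 14 of 23 were lower and 0 higher (median -0.472), with Mthfd2, a mitochondrial folate enzyme, lower, at -1.08 ± 0.16 and Paics, a purine enzyme, not called (-0.05 ± 0.11). In ribosome biogenesis 12 of 34 were lower and 0 higher (median -0.229; 1 higher without HSC replicate 4), such as Pno1 (-0.80 ± 0.18) and the pseudouridine synthase Dkc1 (-0.66 ± 0.13). Npm1, the nucleolar protein nucleophosmin, was not called (-0.03 ± 0.11; adjusted p = 0.877).

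Of 41 respiratory chain genes 14 were called lower (34.1%, against 10.9% of all genes) and 0 higher, with a median of -0.353, or -0.196 without HSC replicate 4. The mean of the list was 10.10 on HSC replicate 4, 10.52 to 10.81 on the other HSC arrays and 10.70 to 11.09 on GMP, with GMP replicate 4 lowest. Cycs, cytochrome c, measured 11.13, 11.54, 11.45, 11.20 and 11.75 on the 5 HSC arrays and 12.38, 12.32, 12.38 and 11.87 on the 4 GMP arrays. Its groups did not overlap (-0.82 ± 0.17, SE), and Cox5a, a subunit of complex IV, was lower, at -0.69 ± 0.15. Other probe sets of Cycs gave -1.12 and -0.14. Atp5b, the catalytic subunit of ATP synthase, was not called (-0.20 ± 0.10; adjusted p = 0.172). The count for this list depended on the fit: 25 were called lower with the replicate block, 32 with the spread of each array as a covariate, and 9 without HSC replicate 1 or without GMP replicate 1, 2 or 3.

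Glycolysis genes moved both ways, with 10 of 21 higher in HSC (47.6%, against 13.6% of all genes) and 7 lower (33.3%, against 10.9%). Slc2a3, the high-affinity glucose transporter GLUT3, measured 9.68, 9.31, 9.40, 8.99 and 9.33 on the 5 HSC arrays and 7.08, 7.23, 7.24 and 7.29 on the 4 GMP arrays. Hk3, the myeloid hexokinase, measured 8.07, 7.93, 7.79, 8.13 and 7.91 on the 5 HSC arrays and 10.09, 10.07, 9.78 and 9.42 on the 4 GMP arrays. Both separated the groups, in opposite directions (2.13 ± 0.13 and -1.87 ± 0.13, SE). Aldoc, an aldolase isoform, was higher by 2.07 ± 0.17, and Pgam1, a phosphoglycerate mutase, lower, at -1.09 ± 0.15. Ldha, lactate dehydrogenase A, was not called (-0.05 ± 0.17; adjusted p = 0.862). Without GMP replicate 3 the count lower was 4 in place of 7.

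Regulators of quiescence and genes of the immediate early response were higher in HSC. Of 24 FoxO targets and quiescence regulators 15 were called higher (62.5%, against 13.6% of all genes) and 0 lower (median 0.544). Txnip, an inhibitor of thioredoxin and of glucose uptake, measured 12.26, 12.13, 12.20, 11.75 and 12.12 on the 5 HSC arrays and 9.64, 9.95, 9.74 and 9.61 on the 4 GMP arrays. There was no overlap between the groups (2.36 ± 0.12, SE; adjusted p = 1.59e-11). Sesn3, a FoxO target that restrains growth signalling, was higher by 1.45 ± 0.17. Of 29 immediate early genes 23 were called higher (79.3%) and 0 lower (median 0.737). Nr4a1, an orphan nuclear receptor, measured 10.73, 9.82, 10.26, 10.19 and 9.86 on the 5 HSC arrays and 7.42, 7.33, 7.64 and 7.26 on the 4 GMP arrays, and its relative Nr4a2 was higher by 2.30 ± 0.19. Rgs1, which dampens G protein signals, was higher by 3.04 ± 0.41, with GMP arrays spread from 7.86 to 9.73. Egr3 was not called (-0.12 ± 0.11; adjusted p = 0.481).

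Interferon-stimulated genes were higher in HSC, 22 of 31 called higher (71%, against 13.6% of all genes) and 1 lower (median 0.744). Iigp1, an immunity-related GTPase, measured 9.43, 9.69, 9.27, 8.75 and 9.91 on the 5 HSC arrays and 5.53, 5.61, 5.90 and 5.76 on the 4 GMP arrays. Ifitm1, a membrane protein that blocks viral entry, measured 12.61, 12.60, 12.64, 11.92 and 12.72 on the 5 HSC arrays and 10.13, 10.18, 9.92 and 10.52 on the 4 GMP arrays. Neither overlapped (3.71 ± 0.23 and 2.31 ± 0.17, SE; adjusted p = 3.8e-10 and 2.53e-09). Oasl2 was higher by 2.31 ± 0.20 and Ddx58, the RNA sensor RIG-I, by 2.06 ± 0.16. Gbp3 was the member called lower (-0.60 ± 0.15), and Bst2 was not called (-0.084 ± 0.12).

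The Gimap genes, a family of small GTPases of lymphocytes that lie in 1 cluster, were all higher in HSC. All 8 measured were called, with a median of 1.81. Gimap6 measured 11.56, 11.70, 11.59, 11.59 and 11.68 on the 5 HSC arrays and 7.25, 7.14, 7.35 and 7.50 on the 4 GMP arrays. Its HSC arrays differed by less than 0.2 log2, and the difference was 4.31 ± 0.17 (SE; 19.9-fold; adjusted p = 4e-13). Gimap5, which lymphocytes need to survive, measured 8.16, 7.79, 8.12, 7.21 and 8.34 on the 5 HSC arrays and 4.83, 4.51, 4.75 and 4.37 on the 4 GMP arrays, with a GMP mean below the lower quartile. The others were Gimap1 (2.47 ± 0.12), Gimap4 (2.06 ± 0.19), Gimap8 (1.56 ± 0.15), Gimap9 (1.54 ± 0.27), Gimap7 (1.33 ± 0.16) and Gimap3 (1.15 ± 0.21). Family members share sequence, so that the signal of a single member is uncertain. The mean over the family was 8.16 on HSC replicate 4 and 8.73 to 8.90 on the other HSC arrays.

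MHC class II genes showed the same array apart. Of 18 MHC and antigen presentation genes 8 were called higher (44.4%, against 13.6% of all genes) and 0 lower. The count lower was 1 when the replicate block was used or HSC replicate 4 was left out. H2-Aa, the alpha chain of I-A, measured 10.34, 10.74, 10.74, 8.37 and 10.85 on the 5 HSC arrays and 6.12, 6.97, 6.29 and 6.55 on the 4 GMP arrays. Replicate 4 lay more than 1.9 log2 units below the other HSC arrays and still above GMP (3.73 ± 0.40, SE; adjusted p = 5.92e-07). Cd74, the invariant chain, measured 9.09, 8.84, 8.97, 7.33 and 8.69 on the 5 HSC arrays and 6.30, 6.65, 6.46 and 6.63 on the 4 GMP arrays, with the same order. H2-Ab1 and H2-Eb1 were higher by 1.62 ± 0.34 and 1.26 ± 0.25, and Cd86, a co-stimulatory ligand, by 1.34 ± 0.18. B2m, the light chain of class I, was bright in both types and not called (0.20 ± 0.10; adjusted p = 0.181).

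Among other gene groups, 9 of 19 imprinted growth-control genes were called higher and 0 lower (median 0.409; 1 lower without HSC replicate 4). Sgce measured 8.82, 9.33, 9.24, 8.52 and 9.12 on the 5 HSC arrays and 6.01, 6.25, 6.29 and 5.97 on the 4 GMP arrays, without overlap, and Grb10, an adaptor that restrains insulin signalling, and Igf2r, which clears a growth factor, were higher by 1.49 ± 0.14 and 1.14 ± 0.14. Igf2 itself was not called (-0.082 ± 0.10; adjusted p = 0.621). Chromatin regulators moved both ways, with related enzymes on opposite sides: of 33 Polycomb and DNA methylation genes 10 were higher and 6 lower. Ezh1, the Polycomb methyltransferase of resting cells, was higher by 0.88 ± 0.14, and Ezh2, that of dividing cells, lower, at -0.60 ± 0.097. Of the enzymes that oxidise methylcytosine, Tet1 was higher by 1.10 ± 0.13 and Tet2 lower, at -0.73 ± 0.12. Uhrf1, which recruits maintenance methylation at the fork, was lower, at -0.79 ± 0.15.

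Of 36 transporter and detoxification genes 14 were higher in HSC and 7 lower. Aldh1a1, the aldehyde dehydrogenase, measured 11.04, 10.92, 10.98, 9.60 and 10.87 on the 5 HSC arrays and 6.31, 6.88, 6.58 and 7.005 on the 4 GMP arrays. It was higher without overlap by 3.99 ± 0.25 (SE), and the glutathione transferase Gsta4 and the efflux pump Abcg2, which gives stem cells their dye-excluding side population, by 2.80 ± 0.21 and 1.89 ± 0.19. Mgst2 was lower, at -1.73 ± 0.20, and Sod1 was not called (-0.04 ± 0.09). Of 22 lysosomal genes 5 were higher (22.7%, against 13.6% of all genes), such as Ctso (1.69 ± 0.13). Another 6 were lower (27.3%, against 10.9%), such as Ctsh (-1.41 ± 0.19). Of 22 lymphoid genes 5 were higher (22.7%, against 13.6% of all genes) and 3 lower (13.6%, near the 10.9% of all genes), with 6 lower when the replicate block was used or HSC replicate 4 was left out. Ltb, a TNF family ligand, and Bcl11a, a factor of lymphoid and stem cells, were higher by 2.35 ± 0.16 and 1.27 ± 0.10. Cd52, a small glycoprotein of leukocytes, and Satb1, a chromatin organiser, were lower, at -3.38 ± 0.23 and -1.56 ± 0.14. Ikzf1 was not called (-0.18 ± 0.091).

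**Figure D3:**
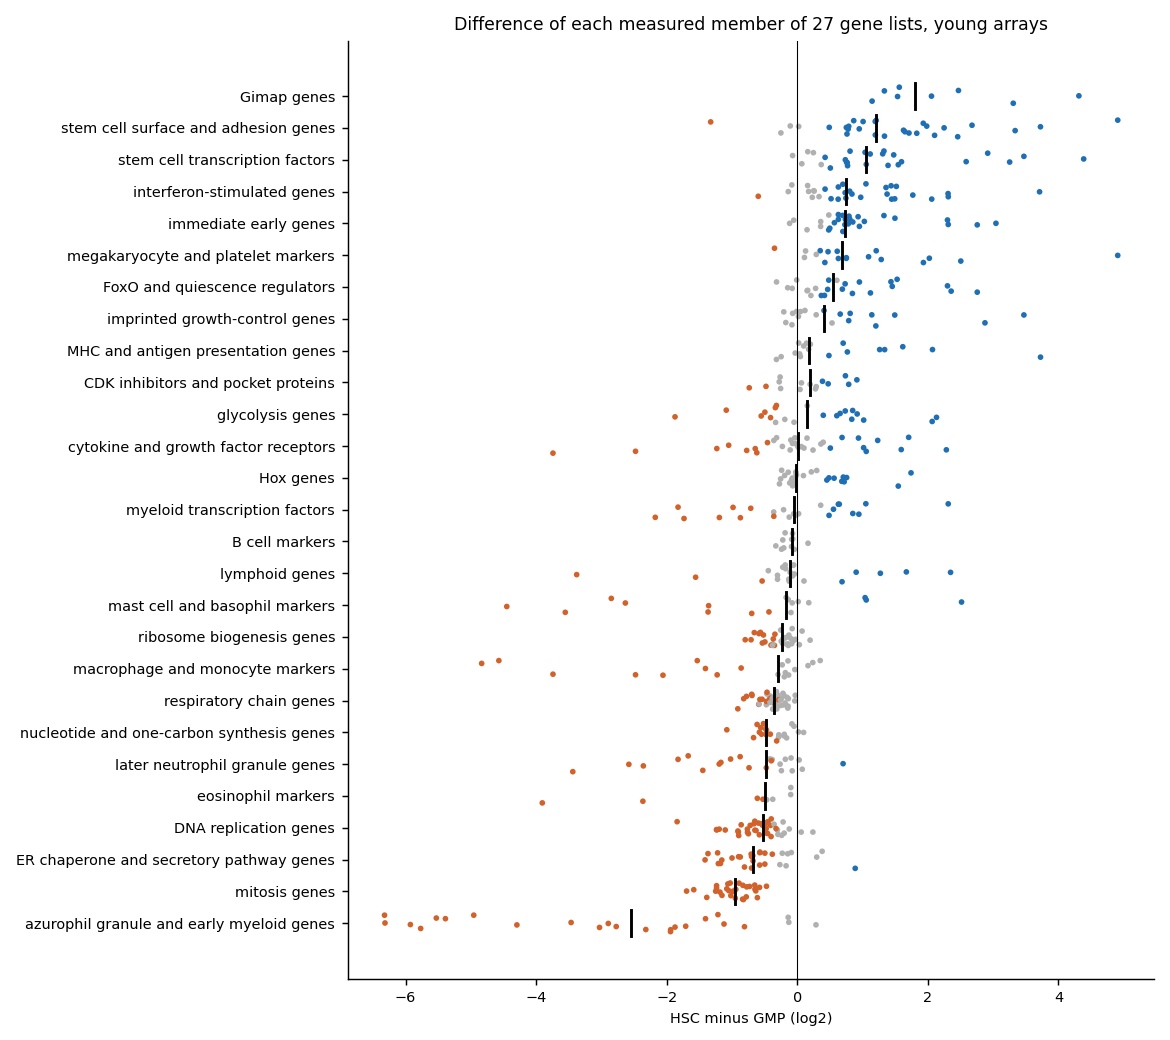
Each point is a measured gene of 27 lists, placed by its difference HSC minus GMP (log2) over 5 young HSC and 4 young GMP arrays. Blue genes were called higher in HSC, orange lower and grey not called (limma adjusted p, threshold 0.05), and black bars are the median of each list. Mitosis genes are all orange and Gimap genes all blue, while Hox, glycolysis and receptor genes lie on both sides of 0 or near it.

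Some of the 12 largest differences in each direction fell outside every list. Higher in HSC were Plxdc2, a transmembrane plexin domain protein (10.28, 10.33, 10.26, 10.47 and 10.53 on the 5 HSC arrays and 6.35, 6.29, 6.61 and 6.79 on the 4 GMP arrays), and the cation channel gene Trpc6, by 3.71 ± 0.14. Casp12, an inflammatory caspase, and Gm4951, a predicted gene, were higher by 3.69 ± 0.25 and 3.89 ± 0.23, with GMP means below the lower quartile. Lower in HSC were Cst7, the protease inhibitor cystatin F (7.22, 7.09, 6.58, 6.67 and 6.96 on the 5 HSC arrays and 12.07, 11.99, 11.96 and 11.28 on the 4 GMP arrays), Anxa3, an annexin of neutrophil granules, at -4.64 ± 0.14, and Ifi209, a member of the interferon-inducible p200 family, at -5.02 ± 0.14. The groups did not overlap in any of these. At the other extreme, the genes closest to 0 among the 200 brightest included those of ribosomal proteins, such as Rplp0 (0.00079 ± 0.083) and Rpl23 (-0.0045 ± 0.089). A second probe set gave -0.115 for Rplp0 and 0.202 for Rpl23, and near-identical pseudogenes make the source of these signals uncertain.

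**Figure D4:**
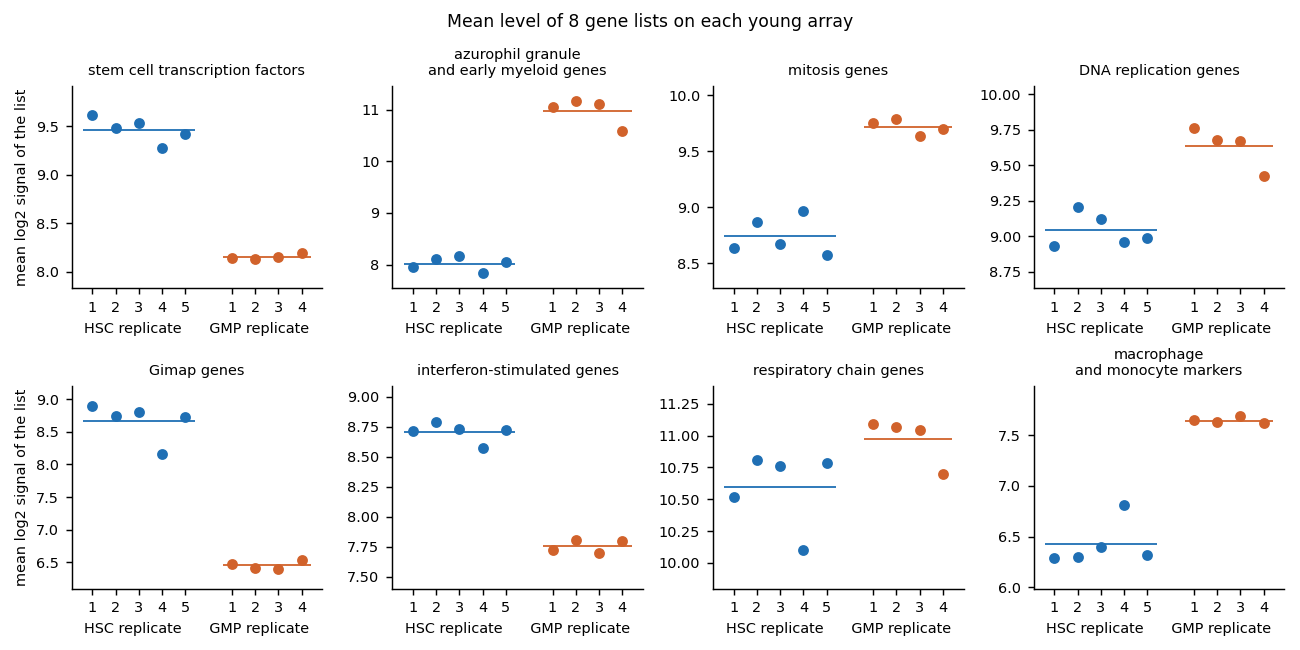
Points are the mean log2 signal over the measured members of 8 gene lists on each young array, with HSC in blue and GMP in orange, and lines are the group means. For 7 of the lists the groups do not overlap, and for the respiratory chain they do, with GMP replicate 4 at 10.70 below 3 of the HSC arrays. HSC replicate 4 is lowest among HSC for the Gimap genes and highest for the macrophage markers.

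Genes of microRNAs were measured through probe sets on their precursors, which cannot tell a precursor from a host transcript. Of 298 measured 9 were called higher and 9 lower, 3.02% in each direction, below the shares of all genes. In 165 of them both means lay below the lower quartile. The 2 let-7 genes among the 6 that were called without overlap are shown, chosen after their values were seen, because they share a seed and differed in opposite directions in young mice. The mature sequences are from RefSeq (GRCm38.p6), 5′ to 3′, with the seed, bases 2 to 8, in capitals.
let-7f-5p of Mirlet7f-1, chr13:48537889-48537910, minus strand: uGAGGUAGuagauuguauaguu
let-7i-5p of Mirlet7i, chr10:122985698-122985719, minus strand: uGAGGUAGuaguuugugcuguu

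Let-7 microRNAs repress genes of growth and of the fetal state through this shared seed. Mirlet7f-1 measured 6.49, 7.29, 6.37, 7.05 and 7.34 on the 5 HSC arrays and 4.74, 4.82, 5.70 and 5.51 on the 4 GMP arrays. It was higher in HSC by 1.71 ± 0.26 (SE; adjusted p = 4.96e-05), with a GMP mean below the lower quartile. Mirlet7i measured 7.03, 7.40, 7.21, 7.59 and 7.46 on the 5 HSC arrays and 7.66, 7.92, 7.69 and 8.10 on the 4 GMP arrays. It was lower in HSC, at -0.51 ± 0.13 (SE; adjusted p = 0.00492). The arrays of both genes did not overlap between cell types. In old mice Mirlet7f-1 was again higher in HSC, at 1.17 (limma adjusted p = 0.011), while Mirlet7i was not called, at 0.031 (adjusted p = 0.936). The opposite directions were thus seen in the young arrays and not in the old. Neither gene was called in the test, given below, of a change of the difference with age.

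The old arrays gave a second measurement of the same contrast in other samples, normalized together with the young ones. On the old arrays Xist lay between 5.46 and 5.84 and Eif2s3y between 8.82 and 9.57, whereas Xist was high on most young arrays. Age and the sex-linked signals therefore differ together between these arrays. The part of this in the comparisons of young and old mice was not tested. Of the genes called higher in young HSC 2495 (94.8%) had the same sign in old mice, and of those called lower 1989 (94.4%), against 64.1% of all genes. Of 1089 genes more than 2-fold apart in young mice 1087 kept their sign in the old. In old mice 4292 genes were called (22.2%), 1785 higher in HSC (9.25%) and 2507 lower (13%). The genes called in the same direction at both ages numbered 1501 higher and 1473 lower, which is 62.7% of the young calls and 69.3% of the old, and 1 gene, Flt3, was called in opposite directions. The differences correlated at 0.849 across genes, which are not independent replicates. Median differences lay further below 0 in old mice for mitosis genes (-1.48 against -0.949), DNA replication genes (-1.05 against -0.531) and respiratory chain genes (-0.8 against -0.353, or -0.196 without young HSC replicate 4). No test of these medians was made.

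Whether the difference between cell types itself differed with age was tested gene by gene. Of 19296 genes 18 were called (0.0933%; 2165 at an unadjusted p under 0.05), 5 with a difference more in favour of HSC in old mice and 13 the reverse. Flt3, one of the sort gate genes, had the smallest p. Its difference was 0.69 ± 0.11 in young and -0.74 ± 0.14 in old mice, a change of -1.43 ± 0.18 (SE; limma adjusted p = 0.0028). Its mean was 8.45 in young and 7.76 in old HSC, and 7.76 in young and 8.50 in old GMP. Flt3 was called in 22 of 22 alternative settings of this test. Zg16, a secreted lectin, changed by 1.51 ± 0.23, Tdrd9, a tudor domain helicase of the germ line, by 1.17 ± 0.18, Gpr183 by 1.63 ± 0.27 and Trpc1, a cation channel, by 1.59 ± 0.26. In these 4 genes the young cell types did not differ beyond the threshold and old HSC were higher than old GMP. Trpc1 was called higher in young HSC with the replicate block (adjusted p = 0.0154), and Zg16 without young HSC or GMP replicate 4 (0.0259 and 0.0348). Plxdc2 and Cd86 changed by -1.18 ± 0.21 and -1.51 ± 0.29, and Mcm6 by -0.85 ± 0.16. These genes were called in fewer of the alternative settings than Flt3. Zg16 was called in 16 of 21, Tdrd9 in 14 of 22, Gpr183 in 11 of 22 and Trpc1 in 9 of 21. Plxdc2 was called in 9 of 22, Mcm6 in 7 of 22 and Cd86 in 5 of 22. With the replicate number within each age as a block, chosen after seeing the data, 22 genes were called, 10 of them among the 18. Flt3, Zg16, Tdrd9 and Plxdc2 kept their calls (adjusted p from 0.00171 to 0.046), and Gpr183, Trpc1, Mcm6 and Cd86 missed the threshold (0.0508 to 0.0519).

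The count of 18 changed with the arrays used. It was 192 without young HSC replicate 4 and 145 without replicate 4 of both young groups. It was 3 without young HSC replicate 2, 1 without replicate 3 and 3 without replicate 5. Without young GMP replicate 1, 2, 3 or 4 it was 8, 5, 1 and 4. Without old GMP replicate 1, 2 or 3 it was 4, 1 and 2, and without old HSC replicate 1 it was 1. Other arrays left out moved the count less: 17 without young HSC replicate 1, 12 without old HSC replicate 2 and 21 without old HSC replicate 3. With the spread of each array as a covariate it was 5. After quantile normalization it was 12, over genes above the lower quartile 14, and with the mean of all probe sets of a gene 20.

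**Figure D5:**
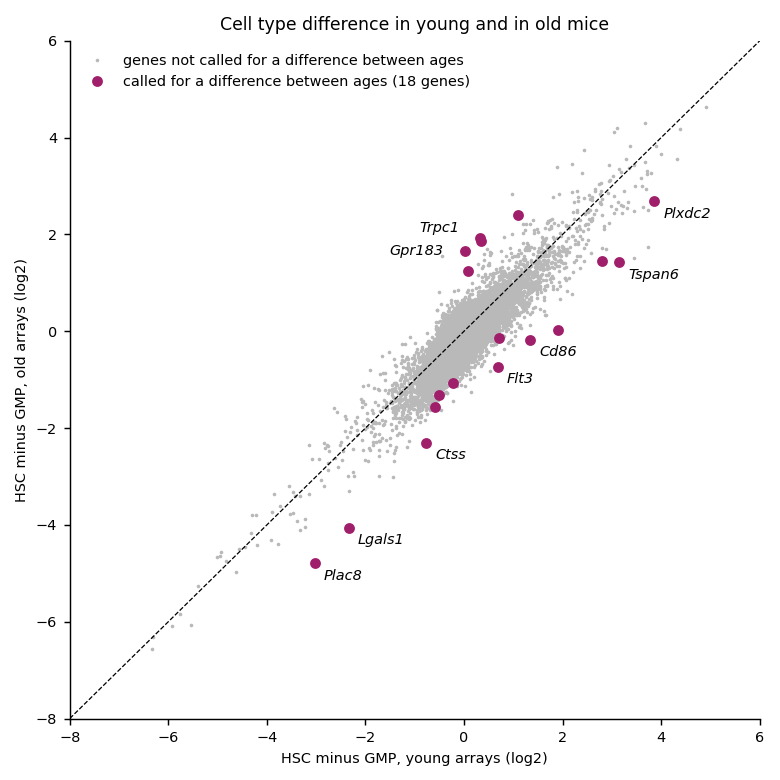
Each point is 1 of 19296 genes, with HSC minus GMP in young mice on the x axis and in old mice on the y axis (log2), and the dashed line marks equal differences. The 18 genes called by limma for a change between ages are drawn large, and 9 of them are named. Flt3 lies above 0 in young and below 0 in old mice, and most genes lie along the line.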

How the data were processed

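Sorted bone marrow cells were profiled on 15 Affymetrix arrays, of which the 9 young ones carry this comparison. The deposited values are log2 signals made by the authors with RMA, a method that corrects background, applies quantile normalization and summarises probes, per the submitters' processing notes, which also name affy and limma without versions. No values were missing among 23309 probe sets. Of these, 20728 carry 1 gene symbol, 1174 several and 1407 none in the platform annotation, and only the first were used. For 804 genes with several probe sets the one with the highest mean was taken, which left 19296 genes.

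A mean for each of the 4 groups was fitted over all 15 arrays with limma 3.58.1 in R 4.3.3 (11 residual degrees of freedom), and Benjamini-Hochberg adjustment ran over all 19296 p-values. The code was tested on simulated data. Deviations from the group means correlated at 0.287, 0.235, 0.161 and 0.525 for HSC and GMP of the same number. Each GMP array correlated best with the HSC array of its own number. HSC replicate 2 correlated slightly better with GMP replicate 1 (0.247) than with GMP replicate 2. Eif2s3y was also close between HSC and GMP of the same number, at 9.293 and 9.335 for replicate 1 and 7.749 and 7.774 for replicate 2. For replicate 3 the values were 9.037 and 8.891, and for replicate 4 they were 4.017 and 4.322. Xist was low on replicate 1 of both types only. The numbers may thus pair the young arrays, which was not tested. The main fit did not use such a pairing, and the replicate block did. The number of arrays limits the precision.

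Genes were named by a rule: the 12 largest differences in each direction, up to 5 called members of each list in each direction and up to 3 not called, the sort, Hox, Gimap, MCM, cell cycle inhibitor, receptor and sex-linked genes, 5 genes that changed most with age and 5 of the 200 brightest closest to 0. The members and lists were chosen with earlier results of these data known. Prtn3 is named for its sequence, and Spi1, Hoxb13, the microRNA genes and some labels in figures were chosen after their values were seen. Sca-1 was not analysed here. Normalization, arrays fitted, dim filter, probe sets, replicate block, array spread, moderation and single arrays were varied.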

Additional observations from a re-analysis of the deposited data

Results flagged for a closer look

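In groups of 4 and 5 arrays the highest or lowest array was set against the range of its group (Dixon's test) for the 209 genes named and for each list mean. Of 496 groups 58 had an array standing apart (11.7%), where chance gives about 1 in 20 for independent groups. These groups are not independent, because they share the same arrays and the list means hold some of the named genes. The excess over that rate was therefore not tested. Replicate 4 accounts for 50 of them, 28 in HSC and 22 in GMP. Values are log2 signals, and no explanation was weighed.

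HSC replicate 4 was the lowest HSC array for the mean of the glycolysis list (8.783), the ER list (9.876), the MHC list (8.715), the Gimap list (8.159) and the transporter list (8.717), and the highest for the macrophage list (6.813). It was lowest for Aldh1a1 (9.598), Casp12 (8.098), H2-Aa (8.366), Cd74 (7.333), H2-Ab1 (8.836), Gimap9 (7.866), Prtn3 (7.604), Nfe2 (9.624), Id2 (6.823), P4hb (10.1), Txnip (11.75) and Ifitm1 (11.92). It also stood apart for Ptprc (11), Cebpd (6.865), Cdkn1b (9.179), Pgam1 (8.293), Ldha (9.944), Tet1 (10.44), Mgst2 (8.381) and Atp8b4 (6.087), and was highest for Vcam1 (7.896) and Mki67 (10.28).

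GMP replicate 4 stood apart for the means of the myeloid transcription factors (8.244), the respiratory chain (10.7), glycolysis (8.8), the transporters (8.698) and the lysosomal genes (8.897). Among granule and myeloid genes it did so for Anxa3 (10.83), Atp8b4 (11.27), Clec12a (10.7), Cst7 (11.28), Elane (11.06), Prtn3 (9.808), Csf2rb (8.354), Ifngr1 (11.06) and Cd52 (9.122). The others were Mllt3 (9.188), F2r (7.296), Rrm2 (10.15), Cycs (11.87), Atp5b (11.81), Ldha (10.37), Gimap4 (6.095) and Tet1 (9.326).

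Outside replicate 4, HSC replicate 1 stood apart for S100a9 (7.484), Tfrc (8.834) and Xist (4.725), and HSC replicate 5 for Hoxa9 (8.365). GMP replicate 1 did so for Cd48 (10.83), GMP replicate 2 for the immediate early list (8.634) and the eosinophil list (7.227), and GMP replicate 3 for Meis1 (7.85).

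Of the named genes 8 were called by limma for a cell type difference that changed between young and old mice. The change, old minus young, was -1.43 for Flt3, 1.51 for Zg16, 1.17 for Tdrd9, 1.63 for Gpr183, 1.59 for Trpc1, -1.18 for Plxdc2, -0.852 for Mcm6 and -1.51 for Cd86.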

How the results depend on the processing

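The count of called genes ran from 3919 without GMP replicate 3 to 5494 without HSC replicate 4, and to 5850 with the replicate block. Between 82.1% and 99.4% of the 4741 calls were kept under each of 17 settings, and 0 reversed. Of 209 named genes 8 lost their call and 10 gained one under at least 1 setting. The replicate block gave a call to 3 of these (Cebpb, Hoxa7 and Trpc1) and changed no other call among them. With the number within each age as a block (added after seeing the data; 5 residual degrees of freedom) the age contrast gave 22 calls, 10 of them among the 18. Among old arrays same-numbered deviations correlated at 0.05, 0.23 and 0.422, so those numbers may not pair them.

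The count for the change with age was 18, 5 with the spread of each array (its interquartile range) as a covariate and 145 without replicate 4 of both young groups. It ran from 1 to 192 over the young and old arrays left out singly. The old ones were left out after seeing the data.

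List medians changed under some settings as follows, and the cause was not tested. Taking only genes above the lower quartile also left fewer members in each of the lists named for it. Over genes above the lower quartile they were -0.881 for later neutrophil, -0.0728 for lineage cocktail, 0.298 for Hox, 0.657 for imprinted, -1.04 for macrophage and -0.207 for B cell genes. With that covariate they were -0.0835 for lineage cocktail and -0.0421 for lymphoid genes. Without replicate 4 of both groups they were 1.15 for stem cell factors, 2.07 for Gimap and -0.0676 for lymphoid genes.

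Leaving out single arrays gave medians of -2.84 to -2.39 for azurophil, -0.155 to -0.00411 for myeloid factor, 0.293 to 0.483 for imprinted, 0.00425 to 0.144 for Polycomb, -0.417 to -0.196 for respiratory chain, 0.7 to 0.814 for interferon, 1.71 to 2.05 for Gimap, -0.143 to -0.0347 for lymphoid and -0.276 to -0.153 for mast cell genes.

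Precision is limited by 5 against 4 arrays of unstated origin, with replicate 4 apart in both groups. Dim signals near the lower quartile compress fold changes.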
